A study of Mus musculus with 4 samples.

Results

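The SOX transcription factor genes described here are 10 members of the SOX family, Sox1, Sox2, Sox3, Sox4, Sox5, Sox6, Sox8, Sox9, Sox11 and Sox21. They were chosen by gene name, with earlier results of these data known, and all 10 were present among the 29224 genes counted. Astrocyte RNA of the P5 cortex (the fifth postnatal day) was sequenced in 2 libraries from Ezh2 f/f mice, whose Ezh2 alleles are flanked by loxP sites, and 2 libraries from Ezh2 cKO mice, which carry the same floxed alleles and in addition Aldh1l1-iCre, a Cre recombinase under the control of an astrocyte gene. The sources used here name no Cre in the controls. Cells of both groups had been taken from the cortex with magnetic beads carrying the ACSA-1 antibody to GLAST, a glutamate transporter that radial glia and other progenitors also carry. The labels do not give the sex of the mice or say whether a library came from 1 animal or a pool, so the p-values below measure the spread between these libraries.

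SOX proteins bind and bend DNA through an HMG box, the domain they share with SRY, and fall into subgroups with related functions. The SOXB1 proteins (SOX1, SOX2 and SOX3) maintain neural progenitors and the SOXB2 protein SOX21 counters them, whereas the SOXC proteins (SOX4, SOX11 and SOX12) act in newly formed neurons. SOX5 and SOX6 of the SOXD subgroup lack an activation domain of their own and pattern projection neurons and interneurons, and the SOXE proteins (SOX8, SOX9 and SOX10) act in glia, SOX9 in the onset of gliogenesis and in astrocytes and SOX10 throughout the oligodendrocyte lineage.

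In Ezh2 cKO libraries, 5 of the 10 SOX genes fell (Sox11, Sox4, Sox1, Sox3 and Sox2), 2 rose (Sox8 and Sox6), and Sox5, Sox9 and Sox21 did not pass the test. All 10 passed the filter on low counts, and a gene was called at an adjusted p under 0.05 in edgeR's quasi-likelihood test, with the Benjamini-Hochberg adjustment over the 16793 genes tested. Sox2 lost its call under most of the alternatives described below, and Sox3 and Sox6 lost theirs under some. Among all genes tested, 33.6% were called lower and 34.7% higher, so a call by itself was common in this comparison. The median log2 fold change, Ezh2 cKO over Ezh2 f/f, was -0.32 over the 10 genes and 0.02 over all genes tested. Calls in either direction made up 68.4%. On the log2 scale Sox11 fell by 2.99, Sox4 by 2.31 and Sox1 by 1.72, and these 3 were the members called with a decrease of at least 2-fold, as were 14.0% of all genes tested. Sox8 alone was called with an increase of at least 2-fold, as were 19.0% of all genes tested.

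Total counts were between 16273308 and 17522152 per library, at which 3 counts, the limit that a count of 0 allows, correspond to 0.171 to 0.184 CPM (counts relative to the library size). This limit covers counting error only. The 95% intervals below come from the edgeR fit and include the estimated spread between libraries. Of Ezh2, the targeted gene, 434 and 327 counts were found in Ezh2 f/f against 211 and 164 in Ezh2 cKO. The cells were not astrocytes alone by their transcripts. Tubb3, a neuronal tubulin gene, was at 1859 and 1897 FPKM (counts scaled to transcript length and library size) in Ezh2 f/f and at 1223 and 1207 FPKM in Ezh2 cKO, and the astrocyte gene Aldh1l1 at 16.2, 17.0, 16.4 and 15.3 FPKM in the same order. Each was an exception among the markers of its cell type given below. Of 10 neuron markers, 7 were called higher in Ezh2 cKO and only Tubb3 lower. Of 12 astrocyte markers, 11 were called higher and only Aldh1l1 was not called. Ezh2 f/f replicate 2 stood apart in genes of the diencephalon and midbrain, which were picked after their values had been seen. Tcf7l2 had 1457 counts there and 60 to 88 in the other libraries, and Gbx2 138 against 0 to 9. Ttr, a gene of the choroid plexus, had 6326 and 11598 counts in Ezh2 f/f against 5 and 12 in Ezh2 cKO. The part of such tissue differences in the results was not tested. The members' values without Ezh2 f/f replicate 2 are given below. They do not bear on the difference in Ttr, which Ezh2 f/f replicate 1 also showed. In bulk RNA of this kind, fewer cells of a type and less RNA per cell cannot be told apart.

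Of the members, Sox1, Sox2, Sox3, Sox4, Sox11 and Sox21 are genes without an intron, since the span of each in the deposited table equals its exonic length (from 2057 bases for Sox2 to 8311 bases for Sox11). Sox11 (ENSMUSG00000063632) lies on chromosome 12 (minus strand) from 27384263 to 27392573, Sox4 (ENSMUSG00000076431) on chromosome 13 (minus strand) from 29132902 to 29137696, and Sox1 (ENSMUSG00000096014) on chromosome 8 (plus strand) from 12445295 to 12450126. Sox2 is listed on chromosome 3 from 34704554 to 34706610, Sox3 on chromosome X from 59934972 to 59937036 and Sox21 on chromosome 14 from 118470644 to 118474442. Sox8 (ENSMUSG00000024176) lies on chromosome 17 (minus strand) from 25784866 to 25789660 and Sox9 (ENSMUSG00000000567) on chromosome 11 (plus strand) from 112673050 to 112678586. Sox5 and Sox6 are long genes with introns, on chromosome 6 from 143774151 to 144727703 and on chromosome 7 from 115070107 to 115638031. The table names no genome build. Its coordinates differ from GRCm38 for all 22 rows named after SOX genes, although the exonic lengths equal those of GENCODE M21 in all 22.

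The order of the SOX genes by level per length differed between the groups. In Ezh2 f/f the highest of the 10 were Sox4 (58.8 and 49.4 FPKM) and Sox11 (48.6 and 43.7 FPKM), followed by Sox2 (18.6 and 20.1 FPKM) and Sox1 (8.54 and 9.37 FPKM). In Ezh2 cKO the highest was Sox2 (16.3 and 17.6 FPKM), followed by Sox8 (13.8 and 14.5 FPKM), Sox4 (10.3 and 12.8 FPKM) and Sox11 (5.98 and 6.30 FPKM). Neighbours in the order overlapped between libraries for Sox3 and Sox8, Sox9 and Sox21, and Sox21 and Sox5 in Ezh2 f/f, and for Sox1 and Sox9, and Sox21 and Sox5 in Ezh2 cKO. The other neighbours did not overlap. Sox9, whose protein is a nuclear marker of astrocytes, stood at 2.62 and 3.00 FPKM in Ezh2 f/f against 2.79 and 2.93 FPKM in Ezh2 cKO, below Sox2 and Sox8 in every library.

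**Figure D1:**
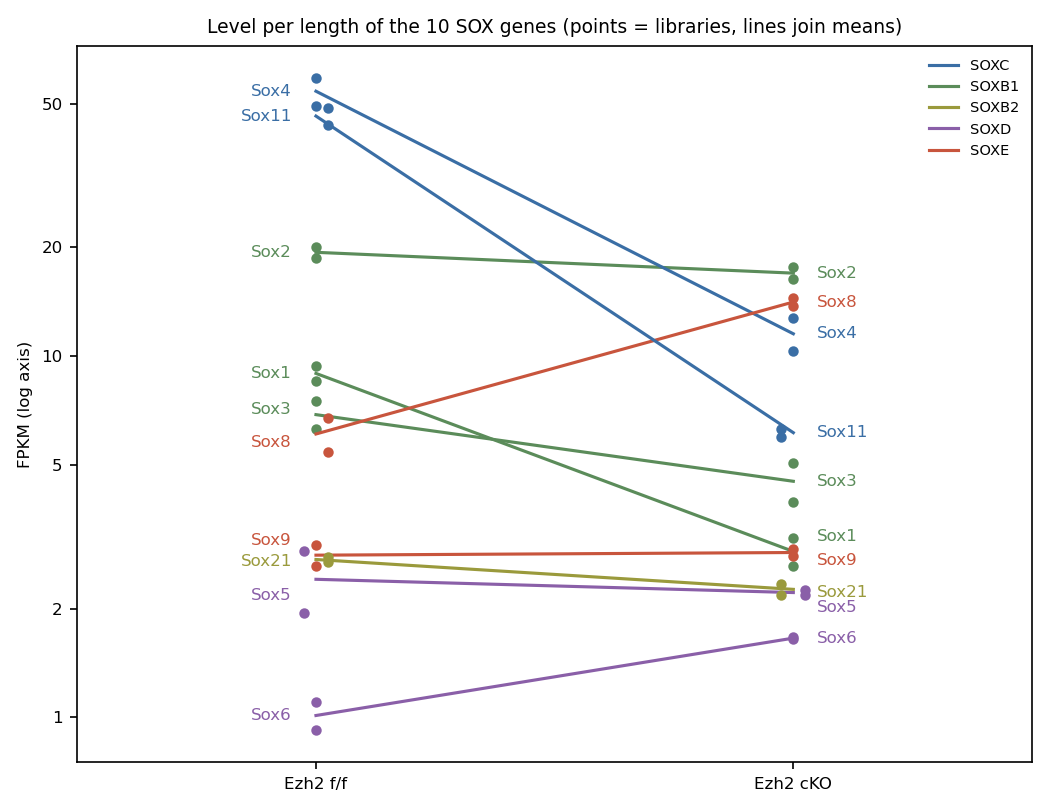
Level of the 10 SOX genes in FPKM (log axis) in Ezh2 f/f and Ezh2 cKO, with a point for each library, moved sideways for some genes so that points do not cover each other, lines that join the group means of 2 libraries, and colours for the subgroups. The lines of Sox4 and Sox11 start highest and cross those of Sox2 and Sox8, and the line of Sox9 stays between 2.81 and 2.86 FPKM.

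Summed over the 10 genes, the level was 157 and 144 FPKM in Ezh2 f/f against 63.3 and 66.9 FPKM in Ezh2 cKO. The SOXC pair, Sox4 and Sox11, made up 68.5% and 64.6% of this sum in Ezh2 f/f against 25.7% and 28.5% in Ezh2 cKO. Over all 19 SOX genes, where SOXC includes Sox12, its share was 73.5% and 71.1% in Ezh2 f/f against 37.0% and 39.5% in Ezh2 cKO. Sox8 and Sox9, the SOXE pair, made up 5.96% and 5.86% of the sum over the 10 genes in Ezh2 f/f against 26.1% and 26.0% in Ezh2 cKO. The level of this pair was 9.36 and 8.44 FPKM in Ezh2 f/f against 16.5 and 17.4 FPKM in Ezh2 cKO. Its share thus also reflects the smaller sum in Ezh2 cKO. The 3 SOXB1 genes together were at 33.5 and 37.0 FPKM in Ezh2 f/f and at 24.5 and 24.2 FPKM in Ezh2 cKO. Their share of the sum over the 10 genes was 21.3% and 25.6% against 38.7% and 36.2%, a higher share at a lower level. These are descriptions, since with 2 libraries against 2 an exact permutation test cannot go below p = 0.333.

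To show the sequence in front of the members with the largest decreases and the largest increase, the 250 bases before the RefSeq transcription start (GRCm38.p6) are printed 5′ to 3′ in the direction of the gene, with CG dinucleotides in capitals. CG-rich starts are common at developmental genes. The windows are chr13:28953700-28953949 on the minus strand for Sox4, chr12:27342719-27342968 on the minus strand for Sox11, chr8:12395269-12395518 on the plus strand for Sox1 and chr17:25570687-25570936 on the minus strand for Sox8.
Sox4: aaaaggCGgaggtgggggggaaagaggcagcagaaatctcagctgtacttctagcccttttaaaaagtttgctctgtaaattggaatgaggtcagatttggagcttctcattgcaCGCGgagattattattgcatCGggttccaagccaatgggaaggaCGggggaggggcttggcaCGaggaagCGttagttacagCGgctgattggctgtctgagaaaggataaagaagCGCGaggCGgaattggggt
Sox11: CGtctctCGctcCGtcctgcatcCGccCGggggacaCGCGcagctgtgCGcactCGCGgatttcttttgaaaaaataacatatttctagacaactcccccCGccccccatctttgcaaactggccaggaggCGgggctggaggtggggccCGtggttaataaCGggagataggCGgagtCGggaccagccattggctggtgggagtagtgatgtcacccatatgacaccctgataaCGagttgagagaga
Sox1: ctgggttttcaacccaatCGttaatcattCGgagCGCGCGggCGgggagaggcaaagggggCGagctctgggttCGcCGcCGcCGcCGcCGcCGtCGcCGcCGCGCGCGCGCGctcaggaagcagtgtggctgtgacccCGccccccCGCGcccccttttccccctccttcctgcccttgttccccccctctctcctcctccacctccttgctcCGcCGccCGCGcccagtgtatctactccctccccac
Sox8: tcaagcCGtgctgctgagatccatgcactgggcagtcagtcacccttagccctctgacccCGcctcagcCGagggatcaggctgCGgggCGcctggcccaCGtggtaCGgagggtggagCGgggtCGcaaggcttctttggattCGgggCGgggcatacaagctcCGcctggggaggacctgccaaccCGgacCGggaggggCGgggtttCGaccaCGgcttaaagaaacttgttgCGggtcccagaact

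The Sox4 window holds 11 CG dinucleotides, that of Sox11 17, that of Sox1 29 and that of Sox8 18. The median over all 32851 promoter windows of this length was 6, and 35.6%, 23.5%, 6.78% and 21.7% of them held at least as many as Sox4, Sox11, Sox1 and Sox8. The bases that follow the RefSeq start lay in a GENCODE M21 transcript for Sox1, Sox4 and Sox8, but not for Sox11. Windows were at hand for 8 of the 10 members, which did not include Sox3 and Sox9. The SOX-type motifs AACAAT and AACAAAG, searched on both strands, and TATAAA were not found in the windows of Sox1, Sox2, Sox4, Sox5, Sox8, Sox11 and Sox21, and 9.42%, 5.03% and 12.4% of all windows held them. Of the 6 windows of Sox6, which has several starts, 1 held AACAAT, 3 AACAAAG and 1 TATAAA.

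Among the SOXC genes, Sox11 showed the largest change of the members. It had 7077 and 5915 counts in Ezh2 f/f against 861 and 873 in Ezh2 cKO. Both Ezh2 cKO libraries lay far below both Ezh2 f/f libraries, with 395 ± 26.8 CPM in Ezh2 f/f against 49.5 ± 1.09 CPM in Ezh2 cKO (SD, n = 2 per group). The log2 fold change was -2.99 (standard error 0.10, edgeR adjusted p = 3.40e-11), a 7.97-fold decrease, and 240 of the 16793 genes tested had a lower value. SOX11 drives genes of neuronal differentiation in newborn neurons.

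Sox4, which acts together with SOX11 in newborn neurons and is also present in progenitors, had 4941 and 3852 counts in Ezh2 f/f against 856 and 1020 in Ezh2 cKO. Again the groups did not overlap, with 267 ± 31.2 and 53.6 ± 7.29 CPM (SD, n = 2 per group). The log2 fold change was -2.31 (standard error 0.12, edgeR adjusted p = 1.17e-09), with 419 of the genes tested at a lower value. The FPKM ratio of Sox4 to Sox11 was 1.21 and 1.13 in Ezh2 f/f against 1.72 and 2.03 in Ezh2 cKO. Sox4 was thus above Sox11 in every library, by a wider margin in Ezh2 cKO. Sox12, the other SOXC gene, had the highest level per length of the 19 SOX genes counted in each group (85.0 ± 2.66 FPKM in Ezh2 f/f and 32.1 ± 0.124 FPKM in Ezh2 cKO, SD, n = 2 per group). It fell by 1.49 on the log2 scale (standard error 0.09, edgeR adjusted p = 3.62e-09), so that all SOXC genes were lower. Without Ezh2 f/f replicate 2 the log2 fold changes were -3.08 for Sox11, -2.44 for Sox4 and -1.53 for Sox12.

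**Figure D2:**
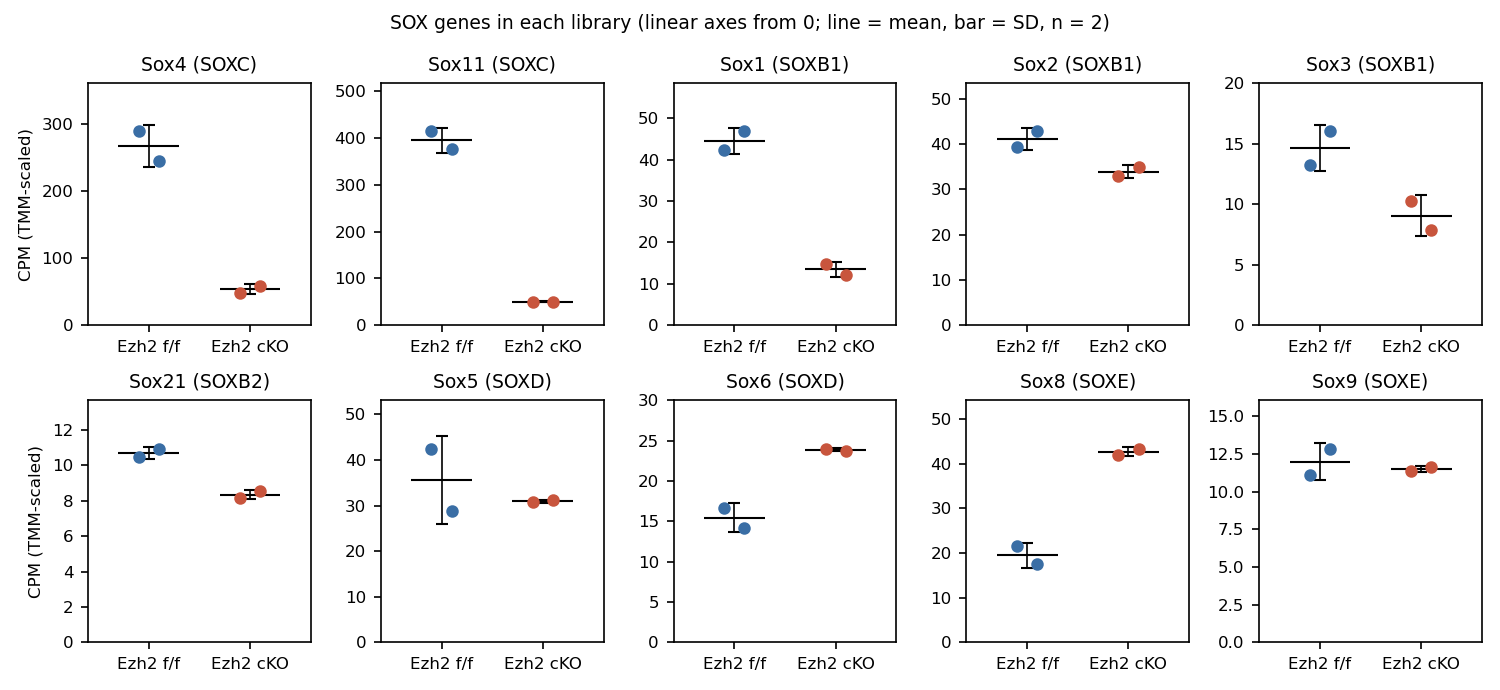
CPM of the 10 SOX genes by library on linear axes from 0, scaled to library size by the TMM method, with the 2 libraries of each group as points, the mean as a line and the SD as a bar. The groups are well apart for Sox4, Sox11, Sox1 and Sox8, and overlap for Sox5 and Sox9.

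The SOXB1 genes, which maintain neural progenitors, moved by different amounts. Sox1, whose protein is lost early as progenitors differentiate, had 723 and 737 counts in Ezh2 f/f against 262 and 212 in Ezh2 cKO. The Ezh2 cKO libraries were both lower, with 44.6 ± 3.23 CPM in Ezh2 f/f against 13.5 ± 1.85 CPM in Ezh2 cKO (SD, n = 2 per group), and the log2 fold change was -1.72 (standard error 0.13, edgeR adjusted p = 4.88e-08).

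Sox3, a progenitor gene on the X chromosome, had 227 and 252 counts in Ezh2 f/f against 181 and 136 in Ezh2 cKO. The groups did not overlap but lay closer together than those of Sox1, and the log2 fold change was -0.69 (standard error 0.18, edgeR adjusted p = 0.00341). Without Ezh2 cKO replicate 2, the lower of the Ezh2 cKO libraries, it was -0.51 and no longer passed the threshold (edgeR adjusted p = 0.0634).

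Sox2, which progenitors share with astrocytes and other glia, had 672 and 673 counts in Ezh2 f/f against 581 and 605 in Ezh2 cKO. Its groups did not overlap and the decrease was small, with a log2 fold change of -0.28 (95% interval -0.50 to -0.05, edgeR adjusted p = 0.0306). The call depended on the setting, with adjusted p from 0.0189 to 0.179 over the alternatives, and it was lost when Ezh2 f/f replicate 2 or either Ezh2 cKO library was left out (adjusted p = 0.119, 0.179 and 0.0834). The FPKM ratio of Sox1 to Sox2 was 0.458 and 0.466 in Ezh2 f/f against 0.192 and 0.149 in Ezh2 cKO, so Sox1 stood lower against Sox2 in both Ezh2 cKO libraries.

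Sox21, the SOXB2 member, had 179 and 172 counts in Ezh2 f/f against 144 and 148 in Ezh2 cKO. Although the groups did not overlap, it did not pass the threshold (log2 fold change -0.36, 95% interval -0.72 to -6.93e-04, edgeR adjusted p = 0.0701). Groups that do not overlap were common, with 41.5% of the genes tested lower and 42.8% higher in both Ezh2 cKO libraries. Sox21 shares 713 of its 3799 exonic bases (18.8%, GENCODE M21) with Gm4675 on the other strand, which had 9 and 5 counts in Ezh2 f/f against 6 and 3 in Ezh2 cKO.

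Long noncoding RNAs surround both Sox1 and Sox2 on the same strand. Sox1ot, which contains Sox1, had 768 and 648 counts in Ezh2 f/f against 223 and 174 in Ezh2 cKO, and it fell by 1.92 on the log2 scale (standard error 0.14, edgeR adjusted p = 2.72e-08). Sox2ot, which contains Sox2, had 305 and 327 counts in Ezh2 f/f against 288 and 260 in Ezh2 cKO and did not pass the threshold (log2 fold change -0.30, 95% interval -0.61 to 0.01, edgeR adjusted p = 0.0749). In GENCODE M21 neither pair shares an exonic base. Unspliced reads of the noncoding RNAs can still fall in the exons of Sox1 and Sox2, and their part in these values was not tested. Sox6os, on the other strand of Sox6, had 0 to 3 counts per library.

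The SOXD genes did not move together. Sox6, known from interneurons and from oligodendrocyte precursors, had 286 and 223 counts in Ezh2 f/f against 424 and 412 in Ezh2 cKO. It rose without overlap of the groups, from 15.4 ± 1.80 to 23.9 ± 0.191 CPM (SD, n = 2 per group), at a log2 fold change of 0.63 (standard error 0.14, edgeR adjusted p = 0.00102). Sox5, known from deep-layer projection neurons and from oligodendrocyte precursors, had 726 and 454 counts in Ezh2 f/f against 542 and 541 in Ezh2 cKO. Both Ezh2 cKO libraries fell between the Ezh2 f/f libraries, and the log2 fold change was -0.21 (95% interval -0.53 to 0.11, edgeR adjusted p = 0.232). A single Ezh2 f/f library decided the value of Sox5. It was 0.10 without Ezh2 f/f replicate 1 (adjusted p = 0.551) and -0.47 without Ezh2 f/f replicate 2, where it passed the threshold (edgeR adjusted p = 8.11e-04). The FPKM ratio of Sox5 to Sox6 was 2.62 and 2.10 in Ezh2 f/f against 1.32 and 1.35 in Ezh2 cKO. Sox13, the SOXD gene that is not among the 10, fell by 0.77 on the log2 scale (edgeR adjusted p = 1.73e-04).

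Among the SOXE genes, Sox8 rose and Sox9 did not pass the test. Sox8, which acts beside SOX9 and SOX10 in oligodendrocyte development, had 368 and 276 counts in Ezh2 f/f against 743 and 753 in Ezh2 cKO. Both Ezh2 cKO libraries were higher, with 19.5 ± 2.81 CPM in Ezh2 f/f against 42.7 ± 0.930 CPM in Ezh2 cKO (SD, n = 2 per group), and the log2 fold change was 1.13 (standard error 0.12, edgeR adjusted p = 1.77e-06). Cerox1, a noncoding RNA gene on the other strand, shares 329 of the 3118 exonic bases of Sox8 (10.6%, GENCODE M21) and had 43 and 42 counts in Ezh2 f/f against 434 and 388 in Ezh2 cKO. The use of strand in counting is not stated, so the value of Sox8 is uncertain to the extent that reads of Cerox1 were counted in it, which was not tested. Sox10, which shares no position with another counted gene, had 367 and 370 counts in Ezh2 f/f against 1031 and 826 in Ezh2 cKO, and it rose by 1.24 on the log2 scale (standard error 0.12, edgeR adjusted p = 6.43e-07).

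Sox9 is needed for the start of gliogenesis and stays on in astrocytes. Its counts were 190 and 202 in Ezh2 f/f against 200 and 202 in Ezh2 cKO. The groups overlapped, with 11.97 ± 1.22 and 11.5 ± 0.222 CPM (SD, n = 2 per group), and the log2 fold change was -0.06 (95% interval -0.40 to 0.28, edgeR adjusted p = 0.758). An increase of more than 0.28 on the log2 scale thus lay outside this interval. The FPKM ratio of Sox8 to Sox9 was 2.57 and 1.81 in Ezh2 f/f against 4.93 and 4.94 in Ezh2 cKO. Without Ezh2 f/f replicate 2 the log2 fold change was 0.97 for Sox8, 0.50 for Sox6, -1.66 for Sox1, -0.57 for Sox3 and 0.03 for Sox9. It was -0.23 for Sox2 and -0.34 for Sox21.

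**Figure D3:**
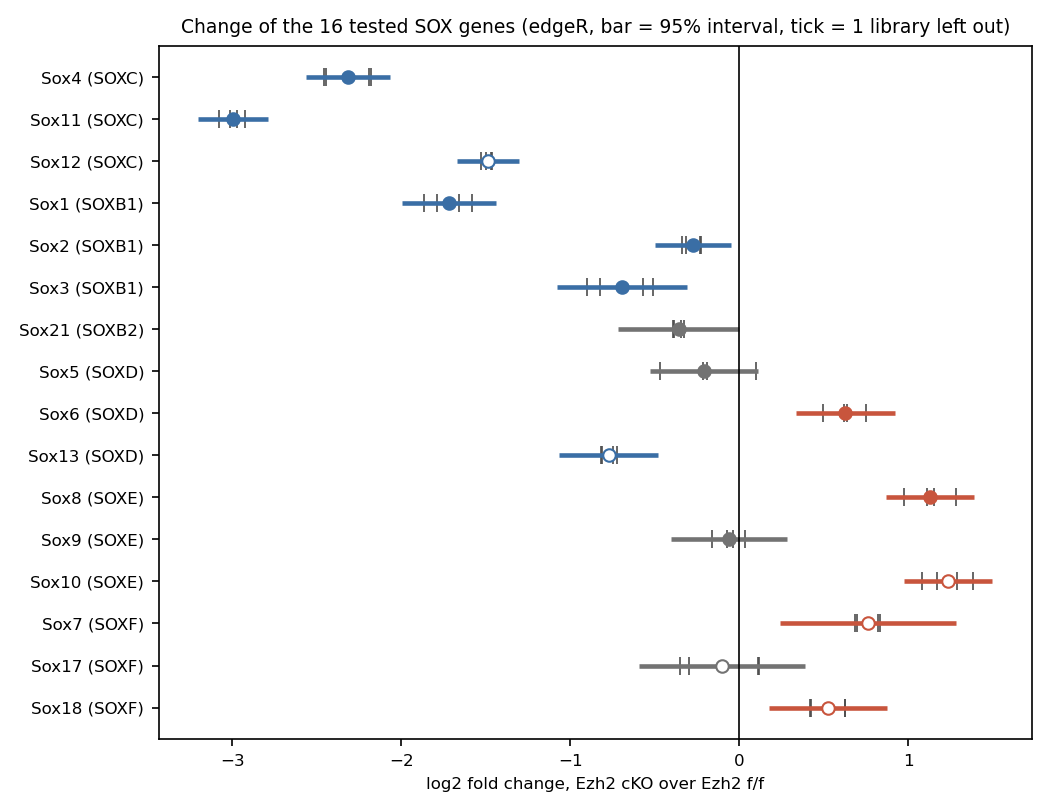
Log2 fold change, Ezh2 cKO over Ezh2 f/f, of the 16 SOX genes tested, ordered by subgroup, with the 95% interval as a bar and the value with each library left out as a tick. Blue marks genes called lower, red genes called higher and grey genes not called, filled points are the 10 members and open points other SOX genes; the values run from -2.99 for Sox11 to 1.24 for Sox10.

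Of the 9 other SOX genes, 6 had enough counts to be tested, with a median log2 fold change of 0.21. Of these, 3 rose and 2 fell, beside 34.7% called higher and 33.6% lower over all genes tested. Those that rose were Sox10, Sox7 and Sox18, and those that fell were Sox12 and Sox13. Sox7, Sox17 and Sox18 form the SOXF subgroup, which acts in endothelial cells. Sox18 had 180 and 145 counts in Ezh2 f/f against 268 and 230 in Ezh2 cKO (log2 fold change 0.53, edgeR adjusted p = 0.0105), Sox7 had 45 and 46 against 87 and 78 (0.76, adjusted p = 0.0125), and Sox17 had 120 and 84 against 118 and 84 (-0.10, 95% interval -0.59 to 0.39, adjusted p = 0.706). The calls of Sox18 and Sox7 were lost without Ezh2 cKO replicate 1 (adjusted p = 0.098 and 0.0877), and that of Sox7 also under DESeq2 (adjusted p = 0.0839). Of 6 endothelial markers, 1 was called higher and 1 lower (0 to 1 each over the alternatives), with a median log2 fold change of -0.01 and a summed level of 96.1 to 101 FPKM in Ezh2 f/f and 91.9 to 106 FPKM in Ezh2 cKO. Sox15 and Sox30 had 0 to 5 counts per library, and Sox14 had 10 counts in Ezh2 f/f replicate 2 and 0 in the other 3 libraries.

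**Figure D4:**
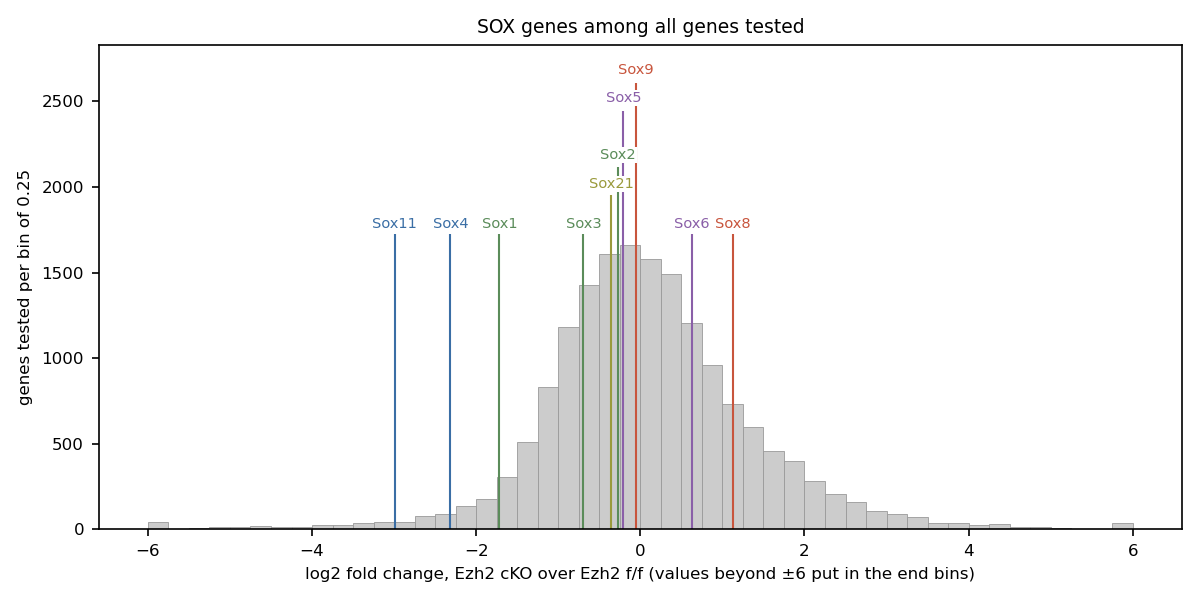
Histogram of the log2 fold changes of the 16793 genes tested, in bins of 0.25, with the 10 SOX genes as vertical lines coloured by subgroup. Sox11, Sox4 and Sox1 lie in the left tail, with 240, 419 and 787 genes at lower values, while Sox9, Sox5 and Sox2 lie in the bulk of the distribution.

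Genes linked to each subgroup by general knowledge were read from lists, which are described here by counts and medians beside the 33.6% lower and 34.7% higher calls over all genes. The lists were chosen with earlier results of these data known, so their counts are descriptions and not independent support. Of 8 genes of immature neurons linked to the SOXC proteins, 5 fell and 1 rose, with a median log2 fold change of -0.73. Dcx, a microtubule protein gene of migrating neurons, fell by 1.49, Tead2, a known target of SOX4 and SOX11, by 1.37 and Tubb3 by 0.71, while Stmn2, a gene of growing axons, rose by 0.47. Of 10 progenitor genes linked to the SOXB1 proteins, 5 fell and 2 rose (1 without Ezh2 cKO replicate 1), with a median of -0.54. Nes, an intermediate filament gene of progenitors, fell by 1.62 and Notch1, a receptor gene, by 0.96, whereas Fabp7, a fatty acid binding protein gene of radial glia and young astrocytes, rose by 0.91 and Hes5, a target of Notch signalling, by 0.72.

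Of 9 astrocyte genes linked to SOX9, 7 rose and 1 fell, with a median of 1.15, beside the value of -0.06 for Sox9 itself. Aqp4, the water channel gene of astrocyte endfeet, rose by 4.42, Mmd2 by 1.15 and Zcchc24 by 0.66, and Apcdd1, an inhibitor of WNT signalling, fell by 0.50. All 10 genes of the oligodendrocyte lineage linked to SOX8 and SOX10 rose, with a median of 1.55. Under DESeq2, 9 of them were called higher, and the calls of Mog and Nkx2-2 depended on the setting. Olig1, Nkx2-2 and Olig2, which encode transcription factors of the lineage, rose by 1.97, 1.16 and 0.61.

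**Figure D5:**
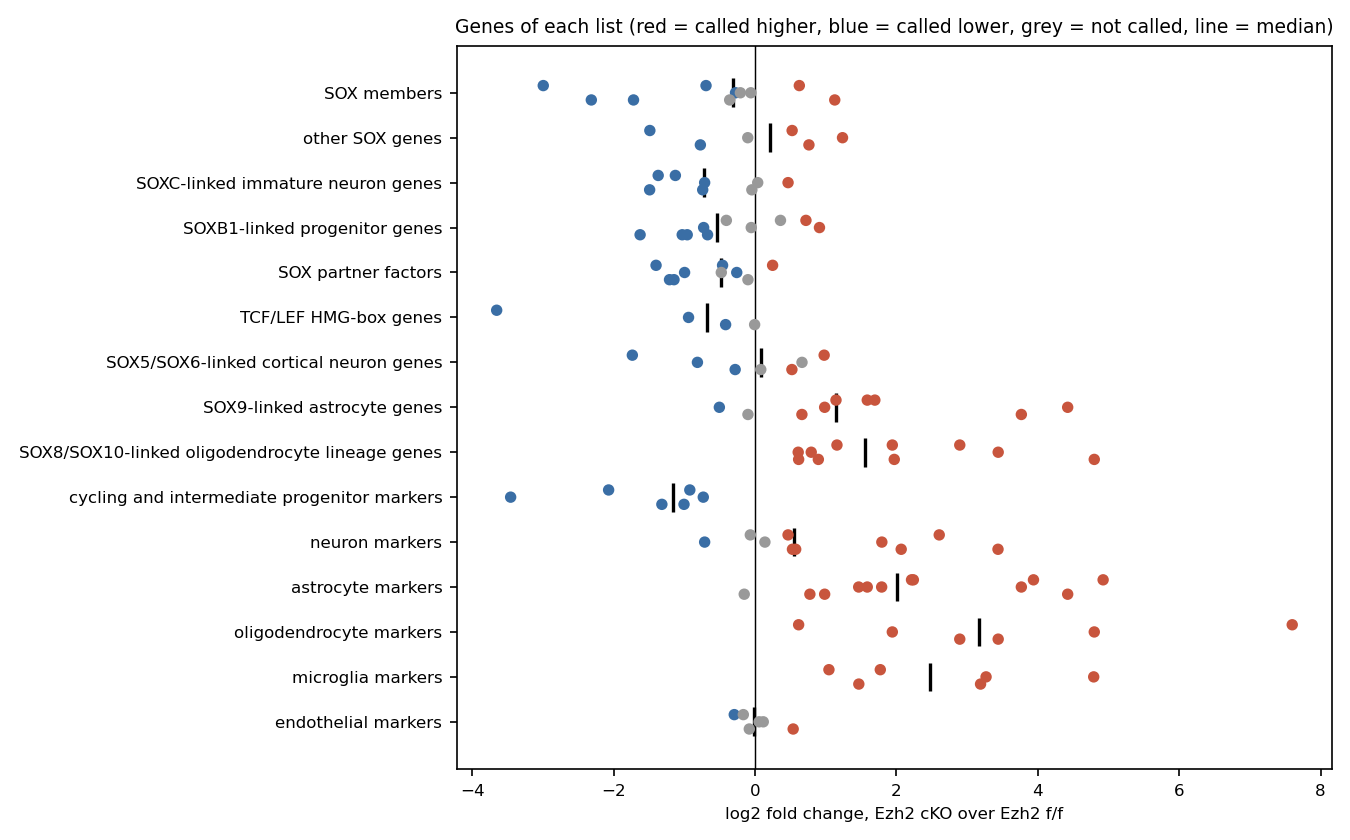
Log2 fold change, Ezh2 cKO over Ezh2 f/f, of each tested gene in the lists of SOX genes, genes linked to SOX subgroups and markers of cell types, with a point for each gene coloured by its call and a line at the median. The 10 SOX members spread from -2.99 to 1.13, the 10 oligodendrocyte lineage genes all lie above 0 and the 6 cycling and intermediate progenitor markers all lie below 0.

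Markers of several cell types are described next, and their lists share genes with the linked lists, so the counts are not separate. All the oligodendrocyte lineage genes linked to SOX8 and SOX10 except Nkx2-2 are also precursor or oligodendrocyte markers. Of the genes linked to SOX9, Fgfr3, Slc1a3, Gfap and Aqp4 are also astrocyte markers. Tubb3 and Stmn2 of the immature neuron list are also neuron markers. The counts below stand beside 34.7% of all genes tested called higher and 33.6% called lower. Of 12 astrocyte markers, 11 rose and 0 fell, with a summed level of 130 to 140 FPKM in Ezh2 f/f and 571 to 630 FPKM in Ezh2 cKO, and Aldh1l1, the gene that drives Cre, was the one that did not pass (log2 fold change -0.15, edgeR adjusted p = 0.175). All 6 markers of cycling cells and intermediate progenitors fell, with a summed level of 15.3 to 16.1 FPKM in Ezh2 f/f and 6.55 to 6.57 FPKM in Ezh2 cKO, and Eomes and Neurog2, which mark cells on the way to becoming neurons, fell by 3.46 and 2.07 on the log2 scale. Of 10 neuron markers, 7 rose and 1, Tubb3, fell, with a median log2 fold change of 0.55. Their summed level, most of which was Tubb3, went the other way, with 2219 to 2285 FPKM in Ezh2 f/f and 2149 to 2153 FPKM in Ezh2 cKO, and Slc17a7, a glutamate transporter gene of excitatory neurons, rose by 3.44 on the log2 scale. All 5 oligodendrocyte precursor markers, which include Sox10, rose (48.8 to 49.8 FPKM against 126 to 145 FPKM), as did all 6 oligodendrocyte markers (8.17 to 10.2 FPKM against 82.9 to 92.7 FPKM) and all 6 microglia markers (24.3 to 24.9 FPKM against 73.1 to 80.9 FPKM). Under DESeq2, 5 of the 6 oligodendrocyte markers were called higher. None of the markers was at 0 in every library. The part of these cell types in the changes of Sox4, Sox11, Sox1, Sox8 and Sox6 was not tested.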

How the data were processed

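RNA-seq libraries of P5 cortical astrocytes were compared between Ezh2 f/f and Ezh2 cKO (2 each). The authors deposited raw read counts for 29224 genes and FPKM values, which are the counts divided by exonic length and library total (1 length per gene in all libraries within a relative tolerance of 1e-09). The labels list Bowtie2 2.2.3, TopHat2 2.0.12, HTSeq 0.6.0 and mm9. Annotation and use of strand are not given in the sources used here. The authors' own fold changes and p-values were not used. All 4 count columns were used.

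Genes were filtered with filterByExpr, which left 16793, normalised by TMM and fitted with edgeR 4.0.16 in R 4.3.3, with the group as the only term. Standard errors are the log2 fold change over the square root of the F statistic. CPM are scaled to TMM-adjusted library sizes. The tests were tried on simulated data in which far fewer genes changed than were called here. That trial therefore does not measure the error of the tests in these data. Replicates differed by more than counting noise (chi-square of counts per degree of freedom, 8.92 for Ezh2 f/f against 5.68 for Ezh2 cKO). Alternatives were DESeq2 1.42.0, its size factors, no filter, at least 50 counts on average, limma 3.58.1 on log2(FPKM + 1), with FPKM of at least 1 in 2 libraries or unfiltered, and on log2(FPKM + 0.1), a replicate block, and each library left out. Members and lists were chosen with earlier results of these data known. All members and other SOX genes are named, of each linked list up to 4 genes are named (the first called in list order and the largest change in each direction), and Aldh1l1, Slc17a7, Eomes and Neurog2 among the markers were picked after their values had been seen. Results for some listed genes are not reported here.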

Additional observations from a re-analysis of the deposited data

How the results depend on the processing

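The calls of Sox1, Sox4, Sox8 and Sox11 kept their direction and their side of the threshold under every alternative run. Sox2 lost its call under DESeq2 (log2 fold change -0.29), without a filter (-0.28), with at least 50 counts on average (-0.24), under limma on log2(FPKM + 1), filtered or not (-0.18 in each), on log2(FPKM + 0.1) (-0.19) and with the replicate block (-0.28). Without the filter, limma also lost Sox3 (-0.52) and Sox6 (0.40), which left 1 member called higher and 3 lower. Sox9 changed sign, at 0.0196 under limma on log2(FPKM + 1), filtered or not, and at 0.0262 on log2(FPKM + 0.1). The median of the other SOX genes was -0.10 without a filter and -0.0116 under unfiltered limma, each over all 9 genes and not the 6 of the main fit. That of the genes linked to SOX5 and SOX6 was -0.0648 with at least 50 counts, -0.036 and -0.0172 under filtered limma with the larger and the smaller pseudocount. These filters removed Pvalb from the list linked to SOX5 and SOX6. The median of the endothelial markers was 0.0229 with at least 50 counts, 0.0546 under limma with the larger pseudocount, filtered or not, and 0.0663 with the smaller. With 1 library left out, where a lone sample is assumed to vary like the other group, log2 fold changes ranged from -0.34 to -0.23 for Sox2, -0.90 to -0.51 for Sox3, -0.47 to 0.10 for Sox5, -0.16 to 0.0325 for Sox9, -0.35 to 0.11 for Sox17 and -0.13 to 0.10 for the endothelial median, and 2 members were called higher and 3 to 5 lower. The lowest count of lower members came without Ezh2 cKO replicate 2. Beyond these differences in the genes covered, the cause of these changes was not tested.

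Libraries of different groups share only a replicate number (correlation of their deviations 0.111 across genes). With the replicate block, 5795 genes were higher and 5599 lower, against 5831 and 5650 without it, and among the members the block ended the call of Sox2 alone. By CPM in place of FPKM, which ignores length, Sox11 ranked 1 and Sox4 ranked 2 among the members in Ezh2 f/f, while both led in Ezh2 cKO with libraries that overlapped (48.5 and 58.8 CPM for Sox4, 48.8 and 50.3 CPM for Sox11).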

Other observations

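Of 9 genes for factors that act beside SOX proteins on DNA, 6 fell and 1 rose, with a median log2 fold change of -0.48, beside 33.6% lower and 34.7% higher calls over all genes tested. Over the alternatives, 4 to 6 were called lower and 0 to 1 higher. Pax6, a homeobox gene of cortical progenitors, fell by 1.40 and Pou2f1, which encodes a POU-domain partner of SOX proteins, by 1.15. Pou3f1, another POU gene, was at -0.26 (edgeR adjusted p = 0.040, up to 0.385 over the alternatives) and Ctnnb1, which encodes β-catenin, at 0.25 (edgeR adjusted p = 0.0461, up to 0.525), so both calls depended on the setting. Among the TCF and LEF genes, whose HMG box is related to that of SOX proteins, 3 of 4 were called lower, and 1 to 3 over the alternatives. Tcf7l1 was at -0.94 and Tcf7 at -0.42, and Tcf7l2 was at -3.65, a value that rests on the 1457 counts of Ezh2 f/f replicate 2 and ranged from -4.58 to -0.43 over the alternatives (edgeR, DESeq2 or limma adjusted p up to 0.351).

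Of 7 cortical neuron genes linked to SOX5 and SOX6, 2 rose and 3 fell, with a median of 0.08, and 2 to 3 were called lower over the alternatives. Lhx6, a homeobox gene of interneurons that acts ahead of SOX6, fell by 1.73, with 2332 and 1682 counts in Ezh2 f/f against 678 and 602 in Ezh2 cKO, while Sox6 rose. Satb1, another interneuron gene, rose by 0.98. Of the projection neuron genes, Bcl11b fell by 0.81, and Fezf2 was at -0.28, a call that depended on the setting (edgeR adjusted p = 0.0394, up to 0.373 over the alternatives).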
